A study of Mus musculus with 8 samples.

Results

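The subunits of the mitochondrial respiratory chain that nuclear genes encode were examined in cultured tail tendon fibroblasts of C57Bl/6 mice. In one group Scx had been deleted (ScxKO, genotype Scx-), and in the other it was kept (ScxWT, genotype Scx+). The product of Scx, scleraxis, is a tendon transcription factor with a basic helix-loop-helix domain. RNA sequencing covered 4 ScxKO libraries, numbered 2, 3, 4 and 5, and 4 ScxWT libraries, numbered 2, 3, 5 and 6. The labels give 4HT treatment for all 8, so both groups share it, and no source used here gives the Cre driver or the deleted part of Scx. The subunit genes were chosen by symbol, namely those starting with Ndufa, Ndufb, Ndufc, Ndufs, Ndufv, Uqcr, Cox4, Cox5, Cox6, Cox7, Cox8 or Atp5. Of the 24982 genes in the count table, 90 began with one of these, and 9 were left out as pseudogene symbols, Ndufaf assembly factors or Ndufa4l2. The 81 that remained were 38 genes of complex I, 8 of complex III, 18 of complex IV and 17 of complex V.

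The respiratory chain lies in the inner mitochondrial membrane. Complex I takes electrons from NADH and passes them to ubiquinone, complex III passes them on to cytochrome c, and complex IV hands them to oxygen. The proton gradient that these complexes build drives complex V, the ATP synthase. Most subunits are encoded in the nucleus and imported into the organelle, while a few catalytic ones are encoded in mitochondrial DNA, which was not analysed here. Tendon is a poorly vascularised tissue, and its fibroblasts draw ATP from glycolysis as well as from the chain.

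The libraries held from 17343228 gene counts in ScxKO 4 to 25180790 in ScxWT 5. Scx had 0.152, 0.0468, 0.116 and 0.135 CPM (counts scaled to library size with TMM factors) in ScxKO libraries 2, 3, 4 and 5, against 7.66, 7.06, 10.1 and 6.82 CPM in ScxWT libraries 2, 3, 5 and 6, as the labels say. Of 10 tendon fibroblast markers, 9 were lower in ScxKO libraries, and their summed level was 6499 to 7269.9 CPM in ScxKO and 9257 to 11819.6 CPM in ScxWT libraries. ScxWT 5 stood apart from the other ScxWT libraries, with 11.6 to 13.4 chi-square units per degree of freedom to each, against 2.43 to 4.54 among all other pairs within a group. The labels do not say whether the libraries stem from different animals or cultures, so the p-values reflect only how these libraries vary, and that variation may be technical. In bulk RNA, fewer cells of a type and less RNA per cell cannot be told apart.

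Most subunit mRNAs were slightly higher in ScxKO than in ScxWT cells, and few passed the test. Of the 81 genes, 75 had enough counts to be tested, and 65 of these had a positive log2 change of ScxKO over ScxWT. With edgeR's quasi-likelihood test and Benjamini-Hochberg adjustment over all tested genes, 15 of 75 rose and 0 fell at an adjusted p under 0.05. Over all 13125 genes tested, 14.0% rose and 14.5% fell. At an unadjusted p under 0.05, 27 of the 75 members differed, as did 39.0% of all genes. DESeq2 called 19 higher and 0 lower (13.5% and 12.8% of all genes). The median log2 change was 0.080, with a range of -0.15 to 0.22, against a median of -0.0053 over all genes. The 15 that rose did so by 1.09-fold to 1.16-fold. For 55 of the 75, the whole 95% interval of the fold change lay within 1.2-fold in either direction. The members together took 0.817% ± 0.0245 of gene counts in ScxKO and 0.785% ± 0.0163 in ScxWT libraries (SD, n = 4 each). In 13 of the 75 every ScxKO library lay above every ScxWT library, and in 0 every ScxKO library lay below; over all genes these shares were 14.8% and 14.3%. Regardless of direction, the median size of the log2 change was 0.082 for the members and 0.12 for all genes.

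**Figure D1:**
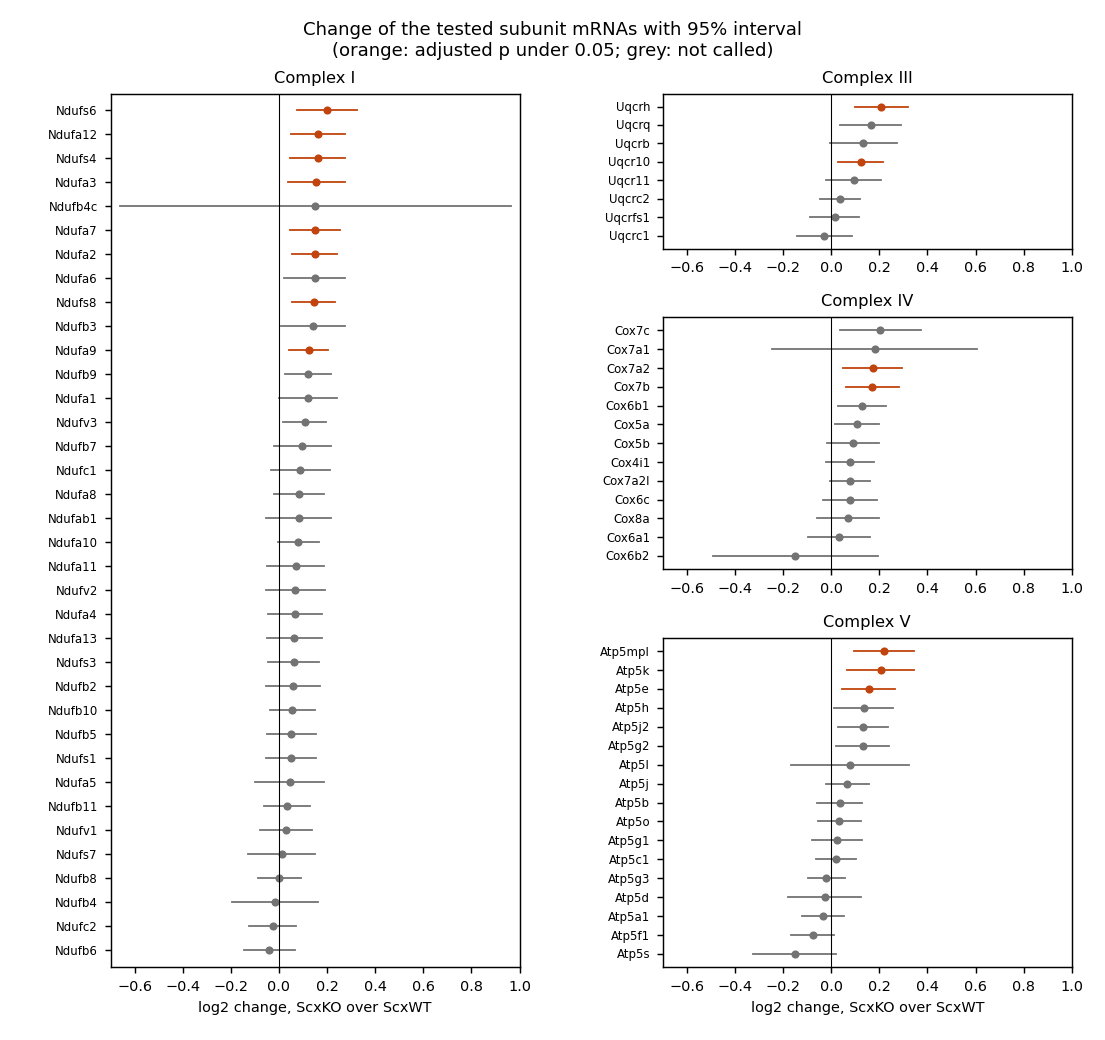
Log2 change of ScxKO over ScxWT for 74 of the 75 tested subunit mRNAs, each with its 95% interval, by complex and in order of size. The 15 in orange passed an adjusted p under 0.05 and all lie right of 0; the widest interval belongs to Ndufb4c, which has few counts.

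Complex I is the entry point for electrons from NADH. Of its 37 tested genes 8 rose and 0 fell (14.0% and 14.5% of all genes), with a median log2 change of 0.082. Ndufs8, a core subunit that carries iron-sulfur clusters towards the ubiquinone site, had 72.2, 68.2, 72.2 and 68.5 CPM in ScxKO libraries 2, 3, 4 and 5, against 64.4, 63.5, 63.4 and 62.8 CPM in ScxWT libraries 2, 3, 5 and 6. All 4 ScxKO values lay above all 4 ScxWT values, which were close together. The gene (ENSMUSG00000059734.7) lies on the minus strand of chr19:3908863-3912774 on GRCm38. The log2 change of Ndufs8 reached 0.14 ± 0.042 (SE; adjusted p 0.0175). Ndufa2, an accessory subunit of the matrix arm, had 94.2, 92.9, 99.6 and 93.2 CPM in ScxKO and 84.7, 90.4, 84.2 and 83.3 CPM in ScxWT libraries, in the same order of numbers. The groups of Ndufa2 did not overlap, and its log2 change was 0.15 ± 0.043 (SE) at an adjusted p of 0.0177.

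Ndufs6, a zinc-binding accessory subunit of the matrix arm, had 47.9, 45.1, 53.8 and 46.9 CPM in ScxKO and 42.1, 43.6, 43.4 and 39.6 CPM in ScxWT libraries. ScxKO 4 was the highest, and the closest pair across groups was ScxKO 3 and ScxWT 3. The log2 change of Ndufs6 reached 0.20 ± 0.059 (SE; adjusted p 0.0187). Ndufa9, an accessory subunit beside the ubiquinone-binding region, had 92.3, 94.9, 93.5 and 94.1 CPM in ScxKO and 85.4, 85.4, 84.8 and 88.7 CPM in ScxWT libraries. Its groups did not overlap either, with ScxWT 6 above the other ScxWT libraries, and its log2 change was 0.12 ± 0.039 (SE) at an adjusted p of 0.0266. The other 4 that rose were the accessory subunits Ndufa12, Ndufs4, Ndufa3 and Ndufa7, which fall outside the rule for named genes and were picked out after their values were seen. Ndufa12 averaged 37.7 ± 1.34 CPM in ScxKO and 33.7 ± 1.63 CPM in ScxWT libraries (SD, n = 4 each). The log2 changes of these 4 were 0.16 for Ndufa12, 0.16 for Ndufs4, 0.16 for Ndufa3 and 0.15 for Ndufa7. ScxKO and ScxWT libraries overlapped for Ndufs4, Ndufa3 and Ndufa7.

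By position in the enzyme, 1 of 7 nuclear-encoded core subunits of complex I and 7 of 28 tested accessory subunits (without Ndufa4 and Ndufb4c) rose, with median log2 changes of 0.061 and 0.086. Over all tested genes 14.0% rose. Core subunits hold the flavin and the iron-sulfur clusters. Ndufv1, which binds the flavin where NADH is oxidised, averaged 88.3 ± 2.40 CPM in ScxKO and 86.4 ± 6.35 CPM in ScxWT libraries, a log2 change of 0.029 whose 95% interval ran from 0.95-fold to 1.10-fold. Ndufs1, which holds several of the clusters, averaged 129.7 ± 3.36 CPM in ScxKO and 125 ± 8.37 CPM in ScxWT libraries. Further core genes that did not pass the test had log2 changes of 0.061 for Ndufs3, 0.012 for Ndufs7 and 0.069 for Ndufv2. Ndufa4, counted in complex I here by its symbol but now placed in complex IV, averaged 159 ± 5.89 CPM in ScxKO and 152 ± 11.6 CPM in ScxWT libraries and did not pass the test, with an interval of 0.97-fold to 1.13-fold.

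**Figure D2:**
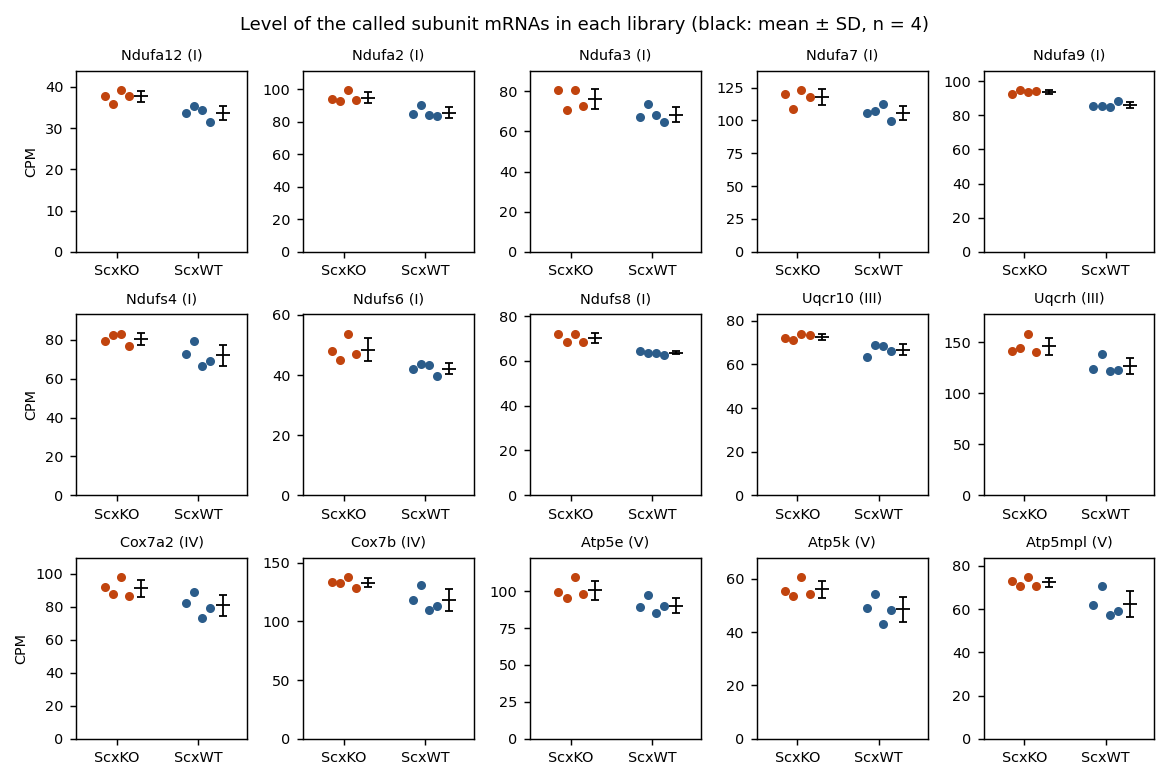
CPM of the 15 subunit mRNAs that rose, in each ScxKO library (orange, numbers 2, 3, 4 and 5 from left) and each ScxWT library (blue, numbers 2, 3, 5 and 6), on axes from 0. The black bars are the mean ± SD of 4 libraries; the groups lie close together, and the 7 genes whose groups overlap are Ndufa3, Ndufa7, Ndufs4, Cox7a2, Cox7b, Atp5e and Atp5k.

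Complex III hands electrons from ubiquinol to cytochrome c. Of its 8 genes, all tested, 2 rose and 0 fell (14.0% and 14.5% of all genes), and the median log2 change was 0.11. Cyc1, its cytochrome c1 subunit, falls outside the symbol rule and is given below with other genes of the pathway. Uqcrh, the hinge protein beside cytochrome c1, had 141, 144, 159 and 141 CPM in ScxKO libraries 2, 3, 4 and 5, against 124, 138, 121 and 123 CPM in ScxWT libraries 2, 3, 5 and 6. The lowest ScxKO library lay just above ScxWT 3, which stood apart from the other ScxWT libraries. The gene (ENSMUSG00000063882.12) lies on the minus strand of chr4:116066965-116075071 on GRCm38. Its log2 change of 0.21 ± 0.052 (SE) had an adjusted p of 0.007, the smallest among the 75. Uqcr10, a small subunit in the membrane, had 72.1, 71.2, 74.2 and 73.7 CPM in ScxKO and 63.4, 69.1, 68.6 and 66.3 CPM in ScxWT libraries. The groups of Uqcr10 did not overlap, and its log2 change was 0.12 ± 0.044 (SE) at an adjusted p of 0.0467. Uqcrfs1, the Rieske iron-sulfur protein that takes the electron from ubiquinol, averaged 84.7 ± 3.22 CPM in ScxKO and 83.8 ± 4.24 CPM in ScxWT libraries (SD, n = 4 each), and its 95% interval ran from 0.94-fold to 1.08-fold. The other 5 genes did not pass the test, with log2 changes between -0.029 for Uqcrc1, one of the large core proteins, and 0.16 for Uqcrq, a small subunit at an adjusted p of 0.0505.

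Complex IV reduces oxygen, and its nuclear-encoded subunits surround a catalytic centre encoded in mitochondrial DNA. Of 13 tested genes 2 rose and 0 fell (14.0% and 14.5% of all genes), and the median log2 change was 0.091. Cox7b, a small membrane subunit, had 133, 133, 138 and 128 CPM in ScxKO libraries 2, 3, 4 and 5, against 118, 131, 109.8 and 113 CPM in ScxWT libraries 2, 3, 5 and 6. Only ScxWT 3 reached into the ScxKO range, above ScxKO 5. The gene (ENSMUSG00000031231.4) lies on the plus strand of chrX:106015700-106022450 on GRCm38. The log2 change of Cox7b reached 0.17 ± 0.052 (SE; adjusted p 0.0224). Cox7a2, the form of subunit VIIa found in most tissues, had 91.8, 87.9, 97.8 and 86.4 CPM in ScxKO and 82.01, 88.5, 73.3 and 79.1 CPM in ScxWT libraries. ScxWT 3 again lay within the ScxKO range, and the log2 change was 0.17 ± 0.058 (SE) at an adjusted p of 0.0344. Cox7c, another small subunit, averaged 47.6 ± 3.73 CPM in ScxKO and 41.4 ± 5.32 CPM in ScxWT libraries, and its log2 change of 0.20 did not pass, at an adjusted p of 0.0673. Cox4i1, a large regulatory subunit, averaged 302 ± 16.8 CPM in ScxKO and 286 ± 12.99 CPM in ScxWT libraries, with an interval of 0.99-fold to 1.13-fold. Log2 changes of the remaining widely expressed forms were 0.11 for Cox5a, 0.091 for Cox5b, 0.033 for Cox6a1, 0.13 for Cox6b1, 0.077 for Cox6c, 0.078 for Cox7a2l and 0.070 for Cox8a, none past the threshold.

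Several complex IV subunits come as pairs of genes, one used in most tissues and one known from lung, muscle and heart, or testis. The pairs here were almost wholly of the first kind in both groups. Cox4i2, the lung form that oxygen lack induces, gave 11 counts in ScxKO libraries together, 0.0454% of the Cox4i1 and Cox4i2 counts (exact 95% interval 0.0226% to 0.0811%), and 12 counts in ScxWT libraries, 0.0468% (0.0242% to 0.0817%). These intervals cover counting error only. Cox6a2, the muscle form, gave 0.161% of its pair in ScxKO and 0.124% in ScxWT libraries. Cox7a1, the muscle and heart form, gave 1.19% of its pair in ScxKO and 1.18% in ScxWT libraries, and its log2 change of 0.18 ± 0.20 (SE) rested on few counts. Cox6b2, known from testis, gave 2.13% of its pair in ScxKO and 2.57% in ScxWT libraries. Its log2 change was -0.15 ± 0.16 (SE), with an interval of 0.71-fold to 1.14-fold. Per kb of transcript, the level of Cox7a1 was 2.02% of that of Cox7a2 in ScxKO and 2.01% in ScxWT libraries, and that of Cox6b2 was 2.89% of that of Cox6b1 in ScxKO and 3.51% in ScxWT libraries. Cox8b gave 2 counts in each group. Cox7b2 gave 0 counts in ScxKO libraries, which allows up to 0.0281% of its pair, and 1 count in ScxWT libraries. Cox8c gave 0 counts in both groups, which allows up to 0.0270% of its pair in ScxKO and 0.0253% in ScxWT libraries.

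**Figure D3:**
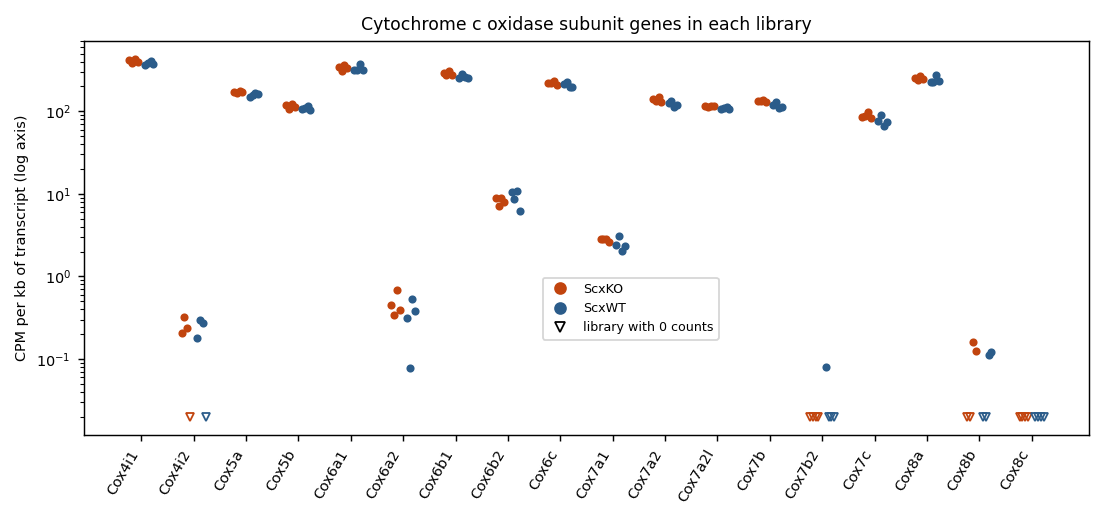
Level of the 18 complex IV subunit genes in each library, as CPM per kb of transcript on a log axis, with ScxKO in orange left of ScxWT in blue. Open triangles at the foot mark libraries with 0 counts and have no level; Cox4i2, Cox6a2, Cox7b2, Cox8b and Cox8c lie at or near the foot in both groups, and Cox7a1 and Cox6b2 lie below their partners.

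Complex V is the ATP synthase, a catalytic F1 head joined by stalks to a membrane rotor. Of its 17 genes, all tested, 3 rose and 0 fell (14.0% and 14.5% of all genes), and the median log2 change was 0.035. The 3 were small subunits. Atp5mpl, a small proteolipid of the membrane part, had 73.1, 70.8, 74.8 and 70.8 CPM in ScxKO libraries 2, 3, 4 and 5, against 62.01, 70.7, 57.3 and 59.1 CPM in ScxWT libraries 2, 3, 5 and 6. The groups met at ScxWT 3, which lay just under the lowest ScxKO library. The gene (ENSMUSG00000021290.6) lies on the minus strand of chr12:111961375-111966977 on GRCm38. The log2 change of Atp5mpl, 0.22 ± 0.059 (SE), was the highest among the members and had an adjusted p of 0.0111. Atp5k, subunit e, which helps the enzyme form dimers, had 55.5, 53.7, 60.7 and 54.5 CPM in ScxKO and 49.2, 54.4, 42.9 and 48.2 CPM in ScxWT libraries. ScxWT 3 reached into the ScxKO range, and the log2 change of Atp5k was 0.21 ± 0.065 (SE) at an adjusted p of 0.0269. Atp5e, the epsilon subunit of the central stalk, had 99.3, 95.3, 109 and 97.96 CPM in ScxKO and 89.1, 97.1, 85.1 and 89.7 CPM in ScxWT libraries. ScxWT 3 lay above ScxKO 3, and the log2 change of Atp5e was 0.16 ± 0.052 (SE) at an adjusted p of 0.0361.

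The large subunits of the catalytic head did not pass the test. Atp5b, the beta subunit that makes ATP, averaged 909 ± 38.1 CPM in ScxKO and 887 ± 34.4 CPM in ScxWT libraries (SD, n = 4 each), with an interval of 0.96-fold to 1.09-fold. Atp5a1, the alpha subunit, averaged 564 ± 11.2 CPM in ScxKO and 578 ± 25.7 CPM in ScxWT libraries, with an interval of 0.92-fold to 1.04-fold. Atp5c1, the gamma subunit that turns inside the head, averaged 185 ± 1.87 CPM in ScxKO and 183 ± 7.15 CPM in ScxWT libraries. By section, 1 of 5 F1 genes, 0 of 3 c-ring genes, 0 of 4 peripheral stalk genes and 2 of 4 small membrane genes rose, with median log2 changes of 0.020, 0.024, 0.050 and 0.17. Differences between sections were not tested, and over all tested genes 14.0% rose. Atp5g1, Atp5g2 and Atp5g3 encode the same c-ring protein with different import signals. Per kb of transcript, Atp5g3 stood at 233 ± 4.36 CPM in ScxKO and 236 ± 3.76 in ScxWT, Atp5g1 at 124 ± 5.84 in ScxKO and 122 ± 5.86 in ScxWT, and Atp5g2 at 72.2 ± 1.64 in ScxKO and 65.9 ± 2.35 in ScxWT libraries. Atp5g2 matched the pseudogenes Gm10175 and Gm10231 at 100% over 441 bases, its whole transcript, and Atp5g1 matched Gm10039 at 99.8% over 411 bases. Counts can be shared with such copies, so the order of these levels is uncertain. None of the 3 c-ring genes passed the test, and their log2 changes were 0.024 for Atp5g1, 0.13 for Atp5g2 and -0.020 for Atp5g3.

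In order of level, scaled per kb of transcript, the tested members ran from 1.13 CPM for Ndufb4c to 469 CPM for Atp5b, as means over 8 libraries. Atp5b stood at 474 ± 19.9 in ScxKO and 463 ± 17.95 in ScxWT libraries. Cox4i1 was next, at 406 ± 22.5 in ScxKO and 384 ± 17.4 in ScxWT libraries, then Cox6a1, at 338 ± 21.9 in ScxKO and 329.9 ± 29.8 in ScxWT libraries. Median levels per kb were 72.8 CPM for the tested genes of complex I, 147 for complex III, 130.3 for complex IV and 159 for complex V. Counts of some members can be shared with near-identical copies: 16 members matched another gene or pseudogene at 97% identity or more over at least 200 bases, and Ndufa12 was the 1 among the 15 that rose. Ndufs5, a complex I subunit, had 0, 1, 1 and 0 counts in ScxKO libraries and 0, 0, 0 and 0 in ScxWT libraries, and matched BC002163 at 99.4% over 319 bases, so its counts are uncertain. Ndufb4 and Ndufb4c, an annotated processed pseudogene, shared 390 identical bases. Exons of 29 members overlap another gene, 4 of them among those that rose (Ndufa2, Ndufa3, Ndufa9 and Ndufs6, all on the other strand), and the use of strand in counting is not given.

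The small shifts depended on which libraries were compared. As log2 deviations from the mean of 8 libraries, the members' medians were 0.052, -0.00097, 0.10 and 0.014 in ScxKO libraries 2, 3, 4 and 5, against -0.074, 0.011, -0.029 and -0.088 in ScxWT libraries 2, 3, 5 and 6. ScxKO 4 was high and ScxWT 2 and 6 were low, while ScxKO 3 and 5 and ScxWT 3 lay near each other, so the groups overlapped. In ScxKO 4, 72 of 75 members were above their mean, against 10 in ScxWT 2 and 12 in ScxWT 6. Without ScxKO 4 the members that rose were 2 of 75 (11.0% of all genes; 11.3% fell), namely Uqcrh and Atp5mpl. Without ScxKO 2 they were 7 (12.5% of all genes; 12.4% fell), and without ScxWT 2 they were 4 (11.3%; 11.5% fell). Without ScxWT 6 they were 5 (12.6%; 12.4% fell), and without ScxWT 3 they were 24 (13.8%; 13.6% fell). None fell in these 5 fits. Without ScxWT 5, the library that stood apart, 31 rose (18.3% of all genes) and 1, Atp5f1, fell (17.5%). With upper-quartile scaling 5 members rose (11.7% of all genes; 17.4% fell), and at an adjusted p under 0.01 Uqcrh alone did (9.07%; 8.71% fell). Uqcrh rose in each of the 8 fits that leave out 1 library, and so did Atp5mpl.

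**Figure D4:**
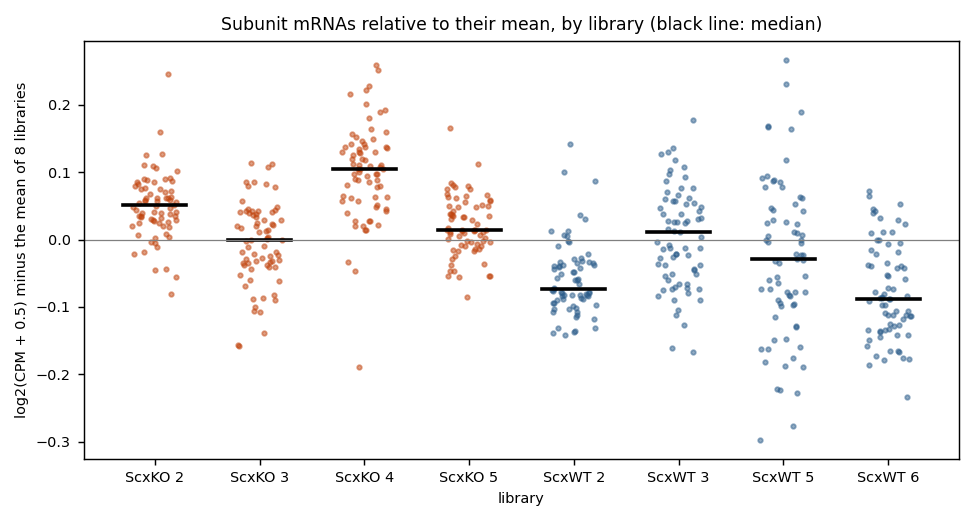
Log2(CPM + 0.5) of each subunit mRNA minus its mean over 8 libraries, with ScxKO libraries in orange and ScxWT libraries in blue; the black line is the median over 75 members, and the points of Ndufb4c, Cox7a1 and Cox6b2, which have low counts, are not drawn. ScxKO 4 has the highest median, 0.10, and ScxWT 6 the lowest, -0.088, while ScxKO 3 and ScxWT 3 both lie near 0.

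Subunit mRNAs are short, with a median transcript length of 732 bases against 2840 over all tested genes. The shorter ones tended to have the higher changes, with exceptions. Across the 75 members, which share the same 8 libraries, the log2 change ran against the log2 of transcript length with Pearson's r of -0.40 and Spearman's rho of -0.45. Over 13024 genes r was -0.071. With GC content r was -0.048 across members. Within libraries, the members' deviations ran with log2 length at r of -0.53 in ScxKO 4 and 0.53 in ScxWT 6, and with GC content at 0.51 in ScxWT 5 and -0.52 in ScxWT 3. A fit corrected for GC content and length lowered the median log2 change of members to 0.031, and r with log2 length became 0.0038, while r with GC content became -0.29. The correction was fitted to length and GC content in these same libraries, members included, so the flatter slope is largely built in. A true group difference that runs with length would be removed too. In the corrected fit 6 members rose (18.9% of all genes) and 4 fell (19.1%). Those that rose in both fits were Uqcrh, Atp5mpl, Cox7b and Ndufs4. The corrected log2 change was 0.11 for Uqcrh (adjusted p 0.0139), 0.21 for Atp5mpl (0.000357), 0.20 for Cox7b (0.000279) and 0.18 for Ndufs4 (0.000837). The other 2 that rose in the corrected fit were Cox7c, at 0.13, and Uqcrb, at 0.14. Those that fell were Ndufb6, at -0.13, Ndufc2, at -0.11, Atp5f1, at -0.11, and Atp5g3, at -0.11, picked out after their values were seen. With the correction and without ScxWT 5, 9 members rose (19.2% of all genes) and 1 fell (17.8%). Without ScxWT 5 and ScxKO 4, and with no correction, 17 rose (16.1%) and 1 fell (15.5%). Uqcr10 and Atp5e had corrected log2 changes of 0.013 and 0.039.

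**Figure D5:**
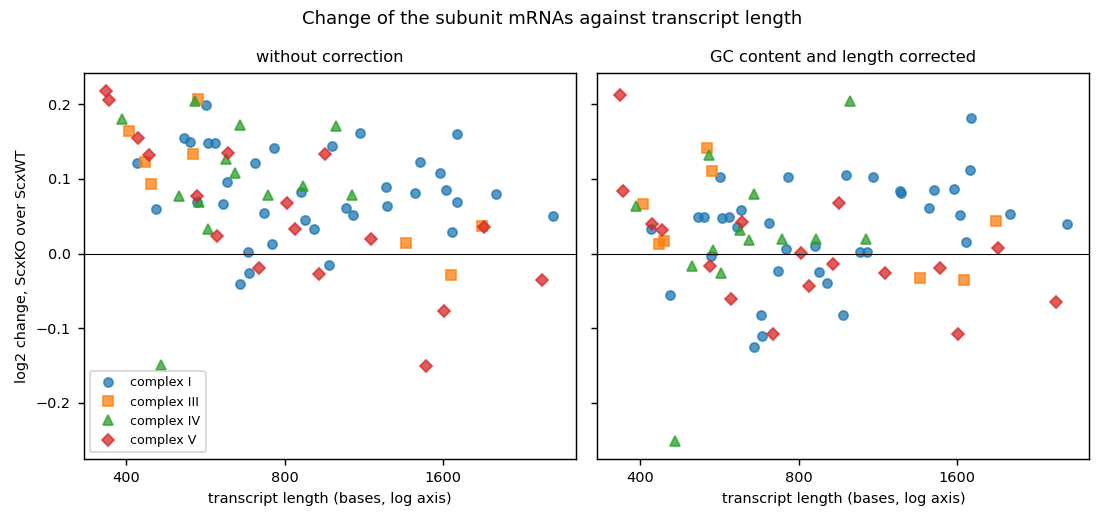
Log2 change of ScxKO over ScxWT against transcript length on a log axis for 74 of the 75 tested subunit mRNAs (Ndufb4c, which has few counts, is not drawn), by complex, without and with the correction for GC content and length. Left, shorter mRNAs tend to lie higher, with exceptions such as Cox6b2 (r -0.40 over 75 members). Right, r is 0.0038 after the correction, which was itself fitted to length in these libraries.

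Of the promoters, which were compared because members of different complexes had similar small changes, 66 of 81 members matched a RefSeq window of 250 bases before to 50 bases after a gene start on GRCm38.p6, in 71 windows. The windows were searched on both strands for a form of the site of nuclear respiratory factor 1 (NRF1), which is GCGC, then A, then any base, then GCGC again, for CCGGAAG, a form of the ETS site that GABP binds, for AAGATGGC, a form of the YY1 site, and for the E-box CANNTG that basic helix-loop-helix factors bind. The NRF1 form stood in 22.5% of member windows, against 4.60% of all 32851 windows and 9.60% of windows of tested genes. CCGGAAG stood in 19.7% of member windows, against 8.86% of all and 16.9% of tested genes' windows. AAGATGGC stood in 14.1% of member windows, against 2.75% of all and 4.26% of tested genes' windows. The E-box stood in 70.4% of member windows, against 72.3% of all and 63.4% of tested genes' windows. Among the 13 matched members that rose, 2 held the NRF1 form, 4 held CCGGAAG, 4 held AAGATGGC and 12 held the E-box. In the 14 windows of these members the E-box share was 92.9%, against 63.0% in 54 windows of tested members not called. The NRF1 form stood in 14.3% against 24.1%, CCGGAAG in 28.6% against 18.5% and AAGATGGC in 28.6% against 11.1%. These differences rest on few windows and were not tested. A match is a description of letters and not a site in use.

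The windows of 1 risen member for each complex are shown 5′ to 3′ on the gene's strand, with matches to the NRF1 form and CCGGAAG on either strand in capitals. These are the members above with the smallest p in complexes I, III and IV, and Atp5k in complex V.
Ndufs8 (chr19:3912725-3913024, minus strand): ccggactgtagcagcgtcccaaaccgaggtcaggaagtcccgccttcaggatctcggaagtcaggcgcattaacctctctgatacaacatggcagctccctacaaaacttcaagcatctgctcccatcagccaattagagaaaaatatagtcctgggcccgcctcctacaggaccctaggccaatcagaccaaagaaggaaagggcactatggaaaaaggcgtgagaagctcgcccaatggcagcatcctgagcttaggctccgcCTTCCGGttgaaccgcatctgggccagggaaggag
Uqcrh (chr4:116075021-116075320, minus strand): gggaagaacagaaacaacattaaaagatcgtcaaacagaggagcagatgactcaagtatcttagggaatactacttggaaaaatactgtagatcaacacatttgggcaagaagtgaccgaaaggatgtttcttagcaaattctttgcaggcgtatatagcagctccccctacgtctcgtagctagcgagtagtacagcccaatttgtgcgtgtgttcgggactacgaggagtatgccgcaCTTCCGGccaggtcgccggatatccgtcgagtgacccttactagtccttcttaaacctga
Cox7b (chrX:106015450-106015749, plus strand): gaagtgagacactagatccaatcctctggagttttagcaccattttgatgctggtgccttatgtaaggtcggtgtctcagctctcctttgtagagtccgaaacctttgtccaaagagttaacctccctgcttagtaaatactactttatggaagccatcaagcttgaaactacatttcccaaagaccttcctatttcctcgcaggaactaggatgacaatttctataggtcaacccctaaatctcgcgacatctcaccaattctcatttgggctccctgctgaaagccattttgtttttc
Atp5k (chr5:108434350-108434649, minus strand): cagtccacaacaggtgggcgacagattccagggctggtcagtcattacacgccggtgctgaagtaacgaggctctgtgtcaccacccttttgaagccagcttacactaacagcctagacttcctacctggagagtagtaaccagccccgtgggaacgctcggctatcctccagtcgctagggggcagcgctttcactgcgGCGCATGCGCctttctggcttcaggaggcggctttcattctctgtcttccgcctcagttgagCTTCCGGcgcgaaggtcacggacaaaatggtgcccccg
Ndufs8 and Uqcrh each held 1 match to CCGGAAG, read from the other strand. Atp5k held both motifs, with the NRF1 form before the gene start. In Cox7b neither string of letters was found in this window.

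Of the 15 members that hold the NRF1 form, Atp5k and Ndufs6 rose. The 6 below, up to 2 per complex with the highest level per kb of transcript, did not pass the test. They are shown as 30 bases around the match, which is in capitals, because they carry the same form as Atp5k. In Ndufa6, Uqcrc1, Atp5g3 and Atp5o the form is read from the other strand.
Ndufa11 (chr17:56717692-56717721, plus strand): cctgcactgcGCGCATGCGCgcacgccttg
Ndufa6 (chr15:82354249-82354278, minus strand): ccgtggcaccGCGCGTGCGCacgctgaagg
Uqcrc1 (chr9:108936643-108936672, plus strand): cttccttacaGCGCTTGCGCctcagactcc
Cox6a1 (chr5:115349101-115349130, minus strand): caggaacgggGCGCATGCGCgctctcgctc
Atp5g3 (chr2:73911295-73911324, minus strand): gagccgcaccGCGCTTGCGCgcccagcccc
Atp5o (chr16:91931602-91931631, minus strand): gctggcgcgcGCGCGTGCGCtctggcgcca
Their log2 changes were 0.069 for Ndufa11, 0.15 for Ndufa6, -0.029 for Uqcrc1, 0.033 for Cox6a1, -0.020 for Atp5g3 and 0.033 for Atp5o. The log2 changes of 6 further holders that did not pass were 0.020 for Atp5c1, 0.13 for Atp5g2, 0.13 for Atp5h, 0.044 for Ndufa5, 0.082 for Ndufa8 and -0.016 for Ndufb4, and Ndufs5 was not tested. The form stood in the windows of genes with positive and with negative changes.

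Other genes of the pathway gave a mixed picture. Their lists were chosen with earlier results of these data known, and over all tested genes 14.0% rose and 14.5% fell. Of 14 TCA cycle genes 1 rose and 1 fell: Idh3b, a subunit of the NAD-linked isocitrate dehydrogenase, had a log2 change of 0.16 (adjusted p 0.00482), and Idh2, the NADP-linked enzyme, one of -0.25 (0.00304). Of the 4 complex II genes Sdhc, a membrane anchor, rose, with a log2 change of 0.14 (0.0158). Neither cytochrome c1 nor cytochrome c (Cyc1 and Cycs) passed the test. Of 45 tested assembly factors 5 rose and 2 fell. Coa7, a complex IV assembly protein, averaged 12.1 ± 0.565 CPM in ScxKO and 9.05 ± 0.636 CPM in ScxWT libraries, a log2 change of 0.41 (0.00118). Pet100 and Cox17, which also serve complex IV, had log2 changes of 0.38 (0.00282) and 0.24 (0.00393). The 2 that fell, picked out after their values were seen, were Cox11 at -0.30 and Acad9 at -0.14.

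Of 16 regulators of mitochondrial biogenesis 2 rose and 1 fell (14.0% and 14.5% of all genes), with a median log2 change of -0.00056. Ppargc1a, a coactivator of NRF1 and GABP, had 14, 15, 17 and 17 counts in ScxKO libraries 2, 3, 4 and 5, against 8, 3, 6 and 11 counts in ScxWT libraries 2, 3, 5 and 6. Its level was low, 0.790 ± 0.134 CPM in ScxKO and 0.307 ± 0.138 CPM in ScxWT libraries (SD, n = 4 each), with groups that did not overlap. The log2 change of Ppargc1a reached 1.31 ± 0.31 (SE; adjusted p 0.00518). Twnk, the mitochondrial DNA helicase, had a log2 change of 0.23 (0.0349), and Polrmt, the mitochondrial RNA polymerase, one of -0.27 (0.00912).

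Of 21 genes of mitochondrial protein import 8 rose and 0 fell (14.0% and 14.5% of all genes), with a median log2 change of 0.11. The correction for GC content and length lowered that median to 0.076, and 8 rose in the corrected fit (18.9% of all genes). Hspa9, the matrix chaperone that pulls proteins in, averaged 812 ± 27.8 CPM in ScxKO and 663 ± 25.2 CPM in ScxWT libraries. Its log2 change was 0.29 (8.10e-05), and those of the small import proteins Timm10 and Timm8b were 0.46 (0.000372) and 0.27 (0.000782).

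Of 6 chain-linked genes known to respond to oxygen lack, 5 were tested and all 5 rose (14.0% of all genes), with a median log2 change of 0.40. The list was chosen with earlier results of these data known, so its count of calls is no independent evidence. Bnip3, a receptor for mitophagy, had 59.1, 69.00, 74.7 and 73.7 CPM in ScxKO libraries 2, 3, 4 and 5, against 47.5, 47.4, 40.3 and 47.9 CPM in ScxWT libraries 2, 3, 5 and 6. The groups of Bnip3 were well apart, with a log2 change of 0.60 ± 0.074 (SE) at an adjusted p of 2.08e-05. Pdk1, which holds back pyruvate dehydrogenase, had 41.9, 44.1, 44.3 and 46.01 CPM in ScxKO and 33.3, 32.9, 32.4 and 34.7 CPM in ScxWT libraries. The groups of Pdk1 did not overlap, and its log2 change was 0.40 (2.12e-05). Lonp1, the matrix protease, had a log2 change of 0.37 (5.00e-05). Higd1a and Ndufa4l2, picked out after their values were seen, had 0.40 (5.38e-05) and 0.79 (0.00793). Ndufa4l2, a relative of Ndufa4, was low, at 2.71 ± 0.629 CPM in ScxKO and 1.57 ± 0.338 CPM in ScxWT libraries, and the sixth gene, Cox4i2, had too few counts to test. In the corrected fit the same 5 rose (18.9% of all genes).

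The summed markers of each other cell type lay below those of tendon fibroblasts in both groups. Over all tested genes 14.0% rose and 14.5% fell. Skeletal muscle, rich in mitochondria, had 10 marker genes with a summed level of 27.6 to 36.7 CPM in ScxKO and 35.2 to 41.5 CPM in ScxWT libraries, with Myod1 and Myh4 at 0, and of 3 tested 1 (Acta1) fell. The sum of 6 fat cell markers was 73.1 to 80.7 CPM in ScxKO and 55.5 to 73.1 CPM in ScxWT libraries, with Ucp1 and Lep at 0. Of 4 tested 1 (Fabp4) rose and 0 fell. Only Fabp4 had a positive log2 change, and the median of the 4 was -0.38, with a range of -0.78 to 0.40. The sum of 6 macrophage markers was 8.14 to 10.6 CPM in ScxKO and 5.46 to 7.88 CPM in ScxWT libraries, and of 3 tested 2 (Cd68 and Csf1r) rose. The sum of 6 endothelial markers was 48.7 to 53.7 CPM in ScxKO and 68.1 to 86.1 CPM in ScxWT libraries, with Cldn5 at 0, and of 3 tested 1 (Kdr) rose and 1 (Tek) fell. Sums were 31.4 to 35.8 CPM in ScxKO and 35.3 to 40.2 CPM in ScxWT libraries for 5 Schwann cell markers, of which 1 (S100b) fell. For 5 keratinocyte markers they were 85.1 to 88.7 CPM in ScxKO and 85.7 to 88.2 CPM in ScxWT libraries, with Krt1 at 0 and none of 2 tested past the threshold. The part of these lists in the members' changes was not tested.

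In the authors' deposited table, 77 of the 81 members had an adjusted p, and 17 were higher and 0 lower in ScxKO cells, against 15.1% and 14.1% of its 14511 genes. The median log2 change of the members there was 0.060, against -0.0031 over all its genes. Of the 15 members that rose here, 9 were also called in the authors' deposited table. It was made from the same experiment and is no independent evidence. Whether it rests on the same gene counts is not known: the SE of Ndufb4c was 0.065 there and 0.38 here.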

How the data were processed

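RNA of 8 libraries of cultured mouse tail tendon fibroblasts, 4 ScxKO and 4 ScxWT by the labels, was sequenced. RNA was purified on miRNeasy Micro columns with DNase I, per the labels' protocols. The submitters' processing notes list FastQC, STAR and DESeq2 and the build mm10; no source used here gives their roles, the read counter or strand use. The authors deposited raw counts, 1 whole number for each gene symbol and library, and a comparison table with log2 fold changes, their standard errors (here a score) and an adjusted p-value. Direction in that table was read from Scx, at -5.94 on its log2 scale.

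The tests used edgeR 4.0.16 under R 4.3.3: filterByExpr (minimum count 10, total 15), TMM factors, and quasi-likelihood models holding group alone, with Benjamini-Hochberg adjustment over 13125 genes at 0.05. Rows for reads in no gene (7.44% to 8.67% of counts) and ambiguous reads (0.490% to 0.567%) were left out. A standard error is the absolute log2 change over the root of its F. The biological coefficient of variation common to all genes was 5.50%. The fit was tested on simulated counts. Transcript lengths and GC content came from GENCODE release M21 (98.0% of 24982 symbols matched), copies from BLAST 2.17.0, and promoter windows from RefSeq. Exact intervals are Clopper-Pearson at 95%, and a count of 0 allows up to 3 counts.

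The values of 1 member, which counts, medians and ranges include, are not reported here. The members and all gene lists were chosen with earlier results of these data known. Named were, per complex, the 4 called members with the smallest p, the complex IV and c-ring isoforms, Ndufa4, core subunits, and up to 3 called genes per pathway list; exceptions are stated. The alternatives comprised upper-quartile and RLE scaling, no filter, at least 5 CPM in 4 libraries, limma-voom 3.58.1, DESeq2 1.42.0, an adjusted p of 0.01, libraries 2, 3 and 5 of each group with and without the number as a block, a correction for GC content and length (loess, span 0.3, 13024 genes), and each library left out. Leaving out ScxWT 5 with ScxKO 4, and the correction without ScxWT 5, were added after the data were seen.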

Additional observations from a re-analysis of the deposited data

Results flagged for a closer look

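Of 105 groups of 4 libraries examined, 9 held a library far from the other 3, and chance alone gives about 1 in 20. Among subunits, ScxWT 6 was high for Ndufa9, at 88.7 CPM, with the other ScxWT libraries at 84.8 to 85.4 CPM. ScxWT 3 was high for Uqcrh, at 138 CPM against 121 to 124 CPM. ScxWT 5 was high for Cox6a1, at 214 CPM against 179 to 181 CPM, and for Cox8a, at 151 CPM against 123 to 128 CPM. ScxKO 3 was low for Atp5g1, at 69.0 CPM, with the other ScxKO libraries at 75.3 to 76.5 CPM.

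Among other genes of the pathway, ScxWT 5 was high for Idh2, at 76.4 CPM against 65.1 to 66.6 CPM, and low for Bnip3, at 40.3 CPM against 47.4 to 47.9 CPM. ScxWT 3 was high for Pet100, at 22.6 CPM against 17.8 to 18.6 CPM. ScxKO 2 was high for Polrmt, at 29.0 CPM, with the other ScxKO libraries at 25.7 to 26.3 CPM. Of the 9, 4 were in ScxWT 5.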

How the results depend on the processing

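No result changed sign under any alternative that kept it past the threshold. With RLE scaling, no filter, the 5 CPM filter, DESeq2 and limma-voom, 14 to 19 members rose and 0 fell. Over all genes 14.0% rose with the main settings and 13.5% with DESeq2, and the shares for the other 4 are not given. With upper-quartile scaling, which also moved the median log2 change of all genes to -0.029, 5 rose (3 in complex I, 1 in III, 0 in IV, 1 in V), and the higher share of all calls was 40.2% against 49.2%. At an adjusted p of 0.01, 1 member rose (0, 1, 0 and 0 in complexes I, III, IV and V), with 1191 genes higher and 1143 lower in all. The labels do not say whether equal replicate numbers pair the libraries. Correlations of deviations were -0.060, 0.16 and 0.057 for numbers 2, 3 and 5, and -0.23 to 0.14 for unlike numbers. With 3 shared numbers these values cannot decide it. In libraries 2, 3 and 5 of each group, the fit with the number as a replicate block called 2 members (0, 1, 0 and 1 by complex). Without the block it called 0 (0, 0, 0 and 0), and the number of all genes lower was 1239, against 1902 with all 8 libraries. The shares of all genes that rose in these 2 fits are not given, so the members' counts cannot be set against them. With the correction for GC content and length, 6 rose and 4 fell, the median log2 change was 0.031, complex I had 1 higher and 2 lower, and complex V had 1 higher and 2 lower. With that correction and no ScxWT 5, 9 rose (19.2% of all genes) and 1 fell (17.8%; 3 higher in complex I, 1 in IV, 1 lower in V). Without ScxWT 5 and ScxKO 4, 17 rose (16.1% of all genes) and 1 fell (15.5%; 4 higher in III, 1 lower in V). Leaving out 1 library at a time gave 2 to 31 members higher and 0 to 1 lower. By complex this was 0 to 14 higher in I, 1 to 4 in III, 0 to 8 in IV and 1 to 5 in V, with 0 to 1 lower in V. For all genes it was 1447 to 2409 higher and 1427 to 2310 lower. The causes were not tested. The 6 untested members had 0 to 9 counts in a library. The median size of the members' log2 changes was 0.082, and their median SE was 0.052.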
